A study of Homo sapiens with 15 samples.

Results

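BEAS-2B, a line derived from the epithelium of the human bronchus, was immortalised with a hybrid virus and grows without limit in culture. In the experiment described here it was kept for months with polyethylene terephthalate nanoplastics (PET-NPLs, particles made from plastic bottles) at 50 µg/mL, while passage-matched cells of the same line grew in parallel without particles. RNA was sequenced from 2 control and 2 exposed samples after 15 weeks and from 3 control and 4 exposed samples after 30 weeks, 11 of the 15 samples of the series; the other 4 were taken at 24 h. All cells shared the line and its culture medium, the exposure had 1 dose, and nothing in the sample labels says that replicates came from separate cultures, so the p-values measure the spread between these samples, which may be technical. The quantity of interest was the difference of exposure effects: the log2 ratio of exposed to control cells at 30 weeks minus the same log2 ratio at 15 weeks. It was computed for every gene that passed a filter on low counts, 16740 genes, with edgeR's quasi-likelihood test, and a gene was called when its Benjamini-Hochberg adjusted p-value was under 0.05. A difference other than 0 can arise because the controls changed between the time points, because the exposed cells changed, or both, so the change from 15 to 30 weeks was tested in each arm as well. The 15-week samples belong to sequencing batch 1 and the 30-week samples to batch 2. Time and batch therefore cannot be told apart in the change of an arm, while each exposure effect lies within 1 batch, and a batch that shifted both arms equally would cancel in the difference.

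Bronchial epithelial cells hold to one another through cadherins and desmosomes, carry a skeleton of keratin filaments, and rest on a basement membrane of laminins and type IV collagen. Growth factors such as TGF-beta and the transcription factors SNAI2, TWIST1 and ZEB1 can shift such cells towards a mesenchymal form, with fibronectin, versican and contractile proteins in place of epithelial junctions. MYOD1 is the master regulator of skeletal muscle: with EYA1 and MEF2C it turns on the genes of contraction and of the acetylcholine receptor at the nerve ending, which epithelial cells normally leave silent.

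The 11 libraries held between 26535277 and 31459990 counts on genes, and at 30 weeks 22.3% to 31% of the counts of controls and 17% to 21.5% of those of exposed cells fell on 6 small noncoding RNAs, against 9.75% to 11.4% at 15 weeks. The biological coefficient of variation was 0.078 at 15 weeks and 0.201 at 30 weeks. Exposed replicate 2 at 30 weeks stood apart from the other exposed samples: a chi-square of the counts per gene was 86.4 to 132 in the pairs that held it and 16 to 35.5 in the other exposed pairs, against 74.7 to 105 between the 30-week controls and 9.02 and 9.14 in the 15-week pairs. Of 12 epithelial markers 4 or 5 reached a mean of 1 CPM (counts scaled to library size by the TMM method) in each group, chiefly KRT8 and KRT18, while EPCAM and CDH1 stayed below it. The mesenchymal markers VIM and THY1 were abundant in all groups, and among 14 skeletal muscle markers 7 reached 1 CPM in the 30-week controls, against 4 in either 15-week group and 2 in the 30-week exposed cells. No marker of endothelium but TIE1 and VWF and none of blood but CD14 and CD68 reached 1 CPM in any group. Without the 6 small noncoding RNAs 786 genes were called in the difference described below, 778 of them among the 794 called with them. The part of the other cell types' markers in the results was not tested.

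The exposure effect differed between 30 and 15 weeks for 794 of the 16740 genes (4.74%), with 445 genes (2.66%) where the log2 ratio of exposed to control was higher at 30 weeks and 349 genes (2.08%) where it was lower. At 15 weeks edgeR called 0 genes (0%) for exposure, with 823 genes at an unadjusted p under 0.05 and a smallest adjusted p of 0.0747. Its test shared 1 spread per gene over all 15 samples, although the coefficient of variation was lower at 15 weeks. A count of 0 therefore does not show that exposure had no effect then. DESeq2 called 18 genes there, voom with condition weights 51 and voom with sample weights 56. At 30 weeks edgeR called 3961 genes (23.7%). The controls changed between 15 and 30 weeks in 8419 genes (50.3%) and the exposed cells in 7697 (46%). Of the 794 called genes 772 (97.2%) were also called at 30 weeks, with a median absolute log2 effect of 1.54 there against 0.22 at 15 weeks. Leaving out exposed replicate 2 of the 30-week samples raised the count of called genes from 794 to 1519, and leaving out any 15-week library lowered it, to 393 and 463 when exposed replicate 2 or 1 was left out and to 427 and 483 when control replicate 1 or 2 was.

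By edgeR the controls moved more than the exposed cells. Among the 794 called genes 580 (73.0%) had the larger absolute log2 change from 15 to 30 weeks in the controls, against 58.8% of all genes tested; the share was 68.5% of the genes with a higher and 78.8% of those with a lower effect at 30 weeks. The median absolute log2 change of the called genes was 1.43 in controls and 0.65 in exposed cells, while over all genes tested the medians were 0.62 and 0.55. The change passed the test in the controls alone for 354 genes (44.6%), which split into 173 with a higher and 181 with a lower effect at 30 weeks, and their median absolute change was 1.73 in controls against 0.28 in exposed cells. It passed in the exposed cells alone for 145 genes (18.3%), 98 higher and 47 lower, with medians of 1.28 in exposed cells and 0.23 in controls. The arms moved in opposite directions in 146 genes (18.4%) and in the same direction in 149 (18.8%), of which 139 changed more in the controls. An arm that missed the threshold is not shown to have stood still.

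This balance moved with the processing. With 2 surrogate variables in limma-voom the count was 2245, with 712 genes in the controls-alone class, 775 in the exposed-alone class and a larger change in controls for 51.7% of them, against 48.6% of all genes tested. Without exposed replicate 2 at 30 weeks the classes held 555 and 362 genes and the share was 63.3%, against 52.9% of all genes tested. Voom with sample weights gave 574 and 441 genes and a share of 65.0%, against 52.7% of all genes tested.

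**Figure D1:**
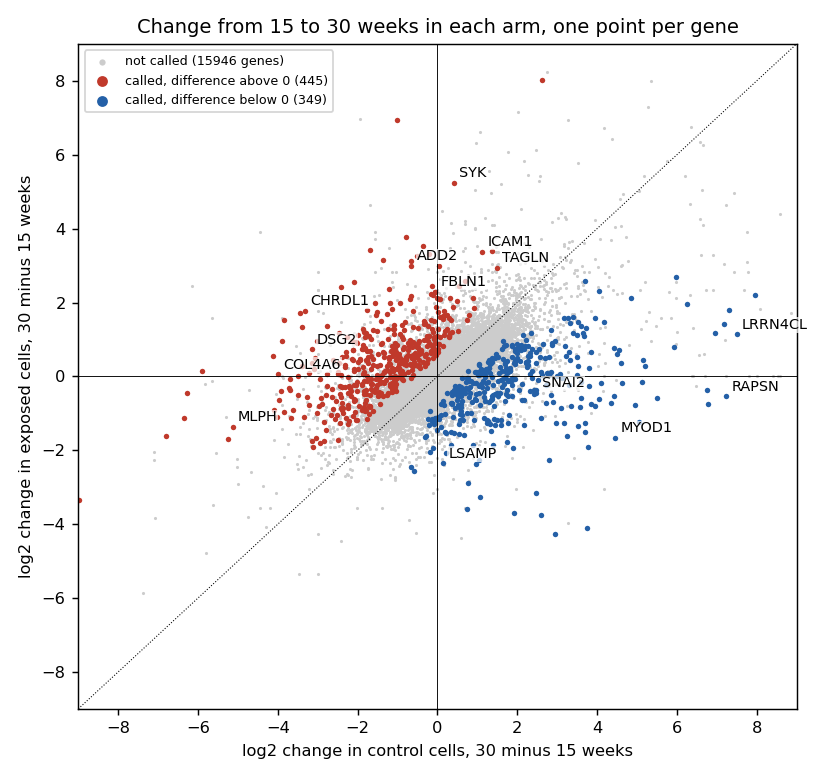
Change from 15 to 30 weeks on the log2 scale in control cells (horizontal axis) and in exposed cells (vertical axis), 1 point per tested gene; red points are the 445 called genes with a higher and blue points the 349 with a lower exposure effect at 30 weeks, grey points were not called, and the dotted line marks equal change. Called genes spread further along the control axis than along the exposed axis, and 5 genes, 1 of them called, lie outside the axes.

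The fitted effects of the called genes were also sorted by their sign at each time point. In 325 called genes (40.9%) the effect had the same sign at both time points and was larger at 30 weeks, with a median absolute log2 effect of 0.19 at 15 weeks and 1.89 at 30 weeks. In 467 genes (58.8%) the fitted sign was opposite at the time points, with medians of 0.25 and 1.36, and in 2 genes it was the same and smaller at 30 weeks. No 15-week effect in any of these genes passed the test, so the opposite signs rest on 15-week values that were not told apart from 0 by edgeR. The share of opposite signs over all genes tested was not computed. Opposite signs also enlarge a difference, so calling genes by their difference favours them. The counts therefore do not show that exposure effects reversed.

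**Figure D2:**
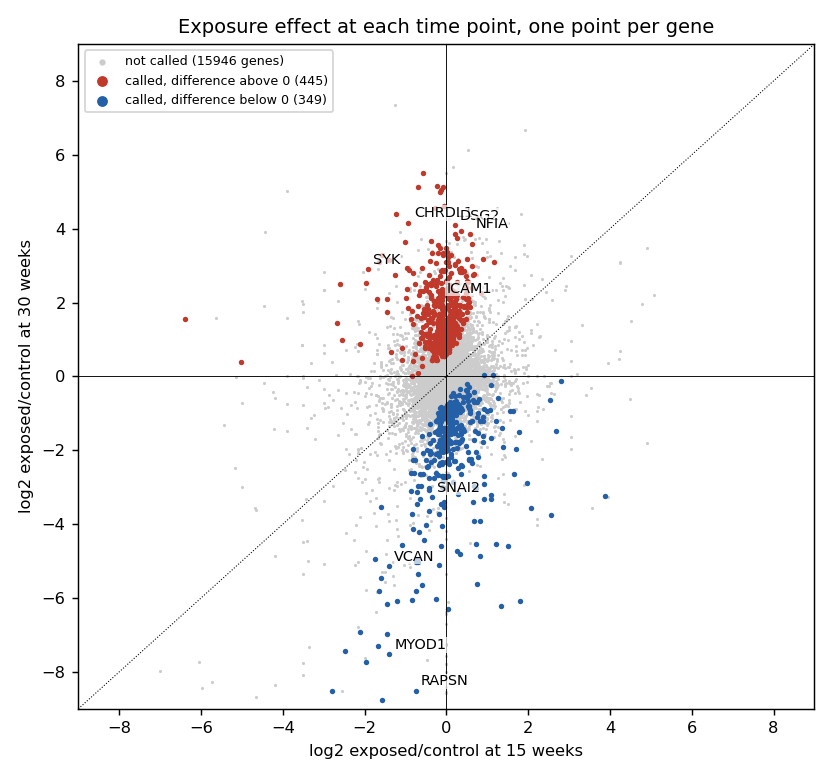
Log2 ratio of exposed to control cells at 15 weeks (horizontal axis) and at 30 weeks (vertical axis), 1 point per tested gene, with the called genes in red (difference above 0) and blue (difference below 0) and the line of equal effects dotted. The called genes form a column near 0 on the 15-week axis that spreads along the 30-week axis; 4 genes, 1 of them called, lie outside the axes.

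The 10 largest gains in effect among genes with a mean of at least 5 CPM in a group were those of CHRDL1, SYK, COL4A6, PDE1C, DSG2, MLPH, PRKCZ, ADD2, AUTS2 and COL4A5, which have varied roles. CHRDL1, a secreted antagonist of bone morphogenetic proteins (Entrez gene 91851, chromosome X, 110673856 to 110795817 of GRCh38), stood at 7.30 and 11 CPM in the 15-week controls and 5.12 and 4.48 CPM in exposed cells, and at 0.430, 1.08 and 1.18 CPM in the 30-week controls against 18.4, 26.2, 11.6 and 9.72 CPM in exposed cells. The controls were lower at 30 weeks and the exposed cells higher, and the groups did not overlap at either time point; the difference was 5.09 (standard error 0.59, edgeR adjusted p = 7.69e-05). SYK, a cytoplasmic tyrosine kinase of immune receptors (Entrez gene 6850, chromosome 9, 90801600 to 90898549), had 4 and 7 counts in the 15-week exposed samples, 0.979 and 0.384 CPM in their controls, 0.559, 1.23 and 0.895 CPM in the 30-week controls and 6.01, 7.60, 6.64 and 6.97 CPM in the 30-week exposed samples. Here the exposed cells moved, with a log2 change of 5.25 against 0.42 in the controls, and the difference was 4.83 (standard error 0.62, edgeR adjusted p = 0.000349). ADD2, a subunit of the spectrin-binding protein adducin, behaved in the same manner, with 0.853 and 0.826 CPM and 0.838 and 1.10 CPM at 15 weeks, 0.559, 0.505 and 0.537 CPM in the 30-week controls and 9.78, 6.17, 8.83 and 6.20 CPM in exposed cells, a difference of 3.64 (standard error 0.47, edgeR adjusted p = 0.000257). AUTS2, a chromatin-linked neurodevelopmental gene, fell in controls and rose in exposed cells (-1.21 and 2.35, difference 3.57 ± 0.46, the value after the sign being the standard error of the log2 difference, here and below). The controls alone fell for PRKCZ, an atypical protein kinase C of cell polarity (12.5 to 1.17 CPM on average, difference 3.67 ± 0.26), and for PDE1C, a cyclic nucleotide phosphodiesterase (7.72 to 0.934 CPM, difference 3.98 ± 0.72). MLPH, an adaptor of melanosome and granule transport, fell in both arms, from 30.0 and 35.6 to 1.16, 0.469 and 1.18 CPM in controls and from 28.0 and 28.7 to 13.9, 11.4, 9.42 and 9.22 CPM in exposed cells.

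The largest losses were genes that rose in the controls by 30 weeks and rose less, fell or did not pass the test in the exposed cells. RAPSN, the scaffold that clusters the muscle acetylcholine receptor (Entrez gene 5913, chromosome 11, 47437764 to 47449136), stood at 0.126 and 0.354 CPM and 0.217 and 0.0649 CPM in the 15-week controls and exposed cells, at 37.5, 36.2 and 37.5 CPM in the 30-week controls and at 0.0724, 0.175, 0.0695 and 0.0704 CPM in the 30-week exposed samples. Only the 30-week controls exceeded 1 CPM, and the difference was -7.76 (standard error 0.94, edgeR adjusted p = 0.000105). TPPP3, a tubulin-binding protein, ranged over 12.8 to 15.0 CPM in the 30-week controls and stayed below 1 CPM in every other library of these 11 (difference -7.54 ± 0.92). LRRN4CL, a leucine-rich repeat membrane protein, rose in both arms, by 7.50 in controls, which then ranged over 22.5 to 23.3 CPM, and by 1.14 in exposed cells, which ranged over 0.422 to 0.526 CPM. CELF2, an RNA-binding regulator of splicing, moved in opposite directions, from 4.99 and 5.52 to 67.4, 74.6 and 64.3 CPM in controls and from 3.75 and 2.08 to 1.01, 1.86, 0.521 and 0.704 CPM in exposed cells, a difference of -5.22 (standard error 0.47, edgeR adjusted p = 6.31e-06). H19, an imprinted noncoding RNA, averaged 85.1 ± 26.3 CPM (SD, n = 3) in the 30-week controls and at most 1.58 CPM in any other library of these 11 (difference -5.52 ± 1.37). VCAM1, an adhesion receptor for leukocytes, reached 15.0, 20.1 and 18.4 CPM in the 30-week controls while every exposed library at either time held 3 counts or fewer, so that it was at least 164-fold higher in controls at 30 weeks against a floor of 3 counts per library. FLT4, a receptor for lymphatic growth factors, had 3 counts or fewer in both 15-week controls and was at least 132-fold higher in the 30-week controls against the same floor, while in exposed cells it went from 0.0620 and 0.162 to 0.435, 0.350, 0.487 and 0.845 CPM. The calls of these last genes leaned on single libraries. H19 was lost without control 1 or exposed 2 at 15 weeks or control 1 at 30 weeks (adjusted p up to 0.706), VCAM1 without either 15-week exposed library or control 1 or 2 at 30 weeks (up to 0.298), and FLT4 without exposed 2 at 15 weeks (0.293).

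The promoters of the leading genes that have an entry in the RefSeq promoter table are printed, 2 in each direction, to show the start regions of strongly changed genes. They are the first with an entry by size of the difference among the genes with a mean of at least 5 CPM in a group. RAPSN, TPPP3, LRRN4CL and MYOD1 are among those without one. Each window runs from 250 bases before to 50 bases after the start of the gene in GRCh38.p14, 5′ to 3′ on the gene's strand: CHRDL1 at chrX:110795768-110796067 on the minus strand, SYK at chr9:90801350-90801649 on the plus strand, TNNT2 at chr1:201377631-201377930 on the minus strand and VCAM1 at chr1:100719492-100719791 on the plus strand. Capitals mark matches, on either strand, to 6 short motifs. These were the TATA box, searched as TATAAA, and the CCAAT box, searched by those 5 letters. The site of AP-1 factors was searched as TGANTCA and that of TEAD factors as GGAATG. There were 2 E-boxes, the kind that ZEB1 and SNAI2 bind, searched as CACCTG, and the kind that muscle regulators bind, searched as CAGCTG.
CHRDL1: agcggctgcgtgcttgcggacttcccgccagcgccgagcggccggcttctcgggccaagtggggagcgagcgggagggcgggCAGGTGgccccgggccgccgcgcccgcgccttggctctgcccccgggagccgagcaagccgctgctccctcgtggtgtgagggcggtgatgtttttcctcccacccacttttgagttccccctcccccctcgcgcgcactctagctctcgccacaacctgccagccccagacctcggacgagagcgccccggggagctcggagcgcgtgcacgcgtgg
SYK: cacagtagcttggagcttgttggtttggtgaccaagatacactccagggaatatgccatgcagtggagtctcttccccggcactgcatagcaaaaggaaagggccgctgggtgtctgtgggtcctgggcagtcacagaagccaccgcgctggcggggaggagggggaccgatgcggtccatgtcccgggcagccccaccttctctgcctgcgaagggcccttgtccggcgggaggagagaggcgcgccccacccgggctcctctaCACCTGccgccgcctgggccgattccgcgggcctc
TNNT2: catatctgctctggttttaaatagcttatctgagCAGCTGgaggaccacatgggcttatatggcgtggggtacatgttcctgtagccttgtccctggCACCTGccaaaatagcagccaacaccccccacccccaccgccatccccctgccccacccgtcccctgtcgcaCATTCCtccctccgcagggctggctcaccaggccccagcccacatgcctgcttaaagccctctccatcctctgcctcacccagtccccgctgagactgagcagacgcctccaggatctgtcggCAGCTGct
VCAM1: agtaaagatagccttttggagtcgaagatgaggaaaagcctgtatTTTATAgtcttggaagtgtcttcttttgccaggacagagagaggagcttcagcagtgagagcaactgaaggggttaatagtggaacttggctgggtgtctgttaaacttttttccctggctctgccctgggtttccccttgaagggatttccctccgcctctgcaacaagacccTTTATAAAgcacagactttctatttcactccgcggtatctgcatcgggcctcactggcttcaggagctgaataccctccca

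CHRDL1 and SYK each held 1 match to the ZEB1 kind of E-box. TNNT2 held 1 match to that kind, 2 to the muscle kind and 1 to the TEAD site, and VCAM1 held 3 to the TATA box, of which 2 overlap on opposite strands. Over 12504 tested genes with a window (1 a gene), of which 330 were called with a higher and 270 with a lower effect, the ZEB1 kind of E-box occurred in 18.6% of all windows, 24.5% of those of genes with a higher and 17.8% of those of genes with a lower effect at 30 weeks. The TATA box occurred in 6.58% of all windows, 5.15% of those of genes with a higher and 11.9% of those of genes with a lower effect at 30 weeks. For the muscle kind of E-box the shares were 17.2%, 20.3% and 19.6% in the same order, for the TEAD site 11.3%, 13.3% and 11.5%, for the AP-1 site 5.00%, 6.97% and 3.33%, and for the CCAAT box 36.4%, 27.3% and 29.3%. These shares describe the windows and were not tested.

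The called genes of 3 skeletal muscle lists all had a lower effect at 30 weeks, and in each of them the controls rose. Of 11 tested myogenic transcription factors 5 were called, as were 5 of 14 genes of skeletal muscle contraction and 3 of 9 of the muscle acetylcholine receptor. These are shares of 45.5%, 35.7% and 33.3%, against 4.74% of all genes tested. The median change in controls was 1.59, 2.97 and 2.51 on the log2 scale for the 3 lists, against -0.11, 0.82 and 0.03 in exposed cells, while the medians over all genes tested were 0.01 in controls and 0.00 in exposed cells. Not every member rose in the controls: 8, 10 and 6 genes passed the test upward there and 2, 1 and 1 downward. The contraction gene TTN, not called, fell from a mean of 92.6 to 47.9 CPM in controls and from 103 to 47.1 CPM in exposed cells. MYOD1 (Entrez gene 4654, chromosome 11, 17719571 to 17722136) stood at 2.02 and 5.72 CPM in the 15-week controls, 1.36 and 1.56 CPM in their exposed counterparts, 106, 65.8 and 84.4 CPM in the 30-week controls and 0.760, 0.315, 0.313 and 0.458 CPM in the 30-week exposed cells. It rose by 4.45 in controls and fell by 1.66 in exposed cells on the log2 scale, and the difference was -6.11 (standard error 0.57, edgeR adjusted p = 8.32e-06). EYA1, a transcriptional coactivator of muscle precursors, rose in controls and fell in exposed cells (1.17 and -1.12, difference -2.28 ± 0.24). CHRNB1, the beta subunit of the receptor, went from 7.99 and 7.4 to 43.6, 38.6 and 49.4 CPM in controls and stayed between 5.47 and 7.76 CPM in all 6 exposed libraries (difference -2.62, standard error 0.25, edgeR adjusted p = 8.32e-06). The muscle actin ACTC1 rose in controls to 9.93 to 10.7 CPM and ranged over 0.528 to 1.46 CPM in exposed cells at 30 weeks (difference -4.41 ± 0.55), and TNNT1, the slow troponin T, rose in both arms, to 186 to 235 CPM in controls and 26.4 to 38.1 CPM in exposed cells (difference -2.06 ± 0.26). ITGA7, the laminin-binding integrin of muscle, rose in both arms too, by 2.86 in controls and 0.89 in exposed cells.

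Several muscle genes sat so close to 0 in the 15-week samples that the fitted difference depended on the method. CHRNA1, the alpha subunit of the receptor, had 3 and 15 counts in the 15-week controls and 0 in both exposed samples, and reached 48.0, 48.5 and 46.7 CPM in the 30-week controls against 0, 0.456, 0.0695 and 0 CPM in exposed cells. MYOG, the factor of muscle differentiation, had 0 counts in all 4 samples of 15 weeks and 2.71, 2.13 and 3.19 CPM in the 30-week controls. Neither was called by edgeR (adjusted p = 0.97 for CHRNA1), though the controls of both rose by its test; limma-voom called both (adjusted p = 0.039 and 0.0075), as did the 3 other settings that used voom. TNNT2 and SGCA, cardiac-type troponin T and a sarcoglycan, had 3 counts or fewer in each 15-week exposed library and reached 32.4 to 47.8 and 8.56 to 12.5 CPM in the 30-week controls; their calls, and that of MEF2C (20.4 to 27.4 CPM in the 30-week controls), were lost without single libraries. TNNT2 lost its call without control 1 or either exposed library at 15 weeks (adjusted p up to 0.202), SGCA without any 15-week library, any 30-week control or exposed 4 at 30 weeks (up to 0.546), and MEF2C without control 1 or either exposed library at 15 weeks, any 30-week control or exposed 3 or 4 at 30 weeks (up to 0.479). Requiring 10 counts in every sample left 3, 3 and 1 called members in the lists of transcription factors, contraction and receptor. That filter removes genes near 0 at 15 weeks, and it moved the list medians to as little as -0.13, -0.32 and -0.78.

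**Figure D3:**
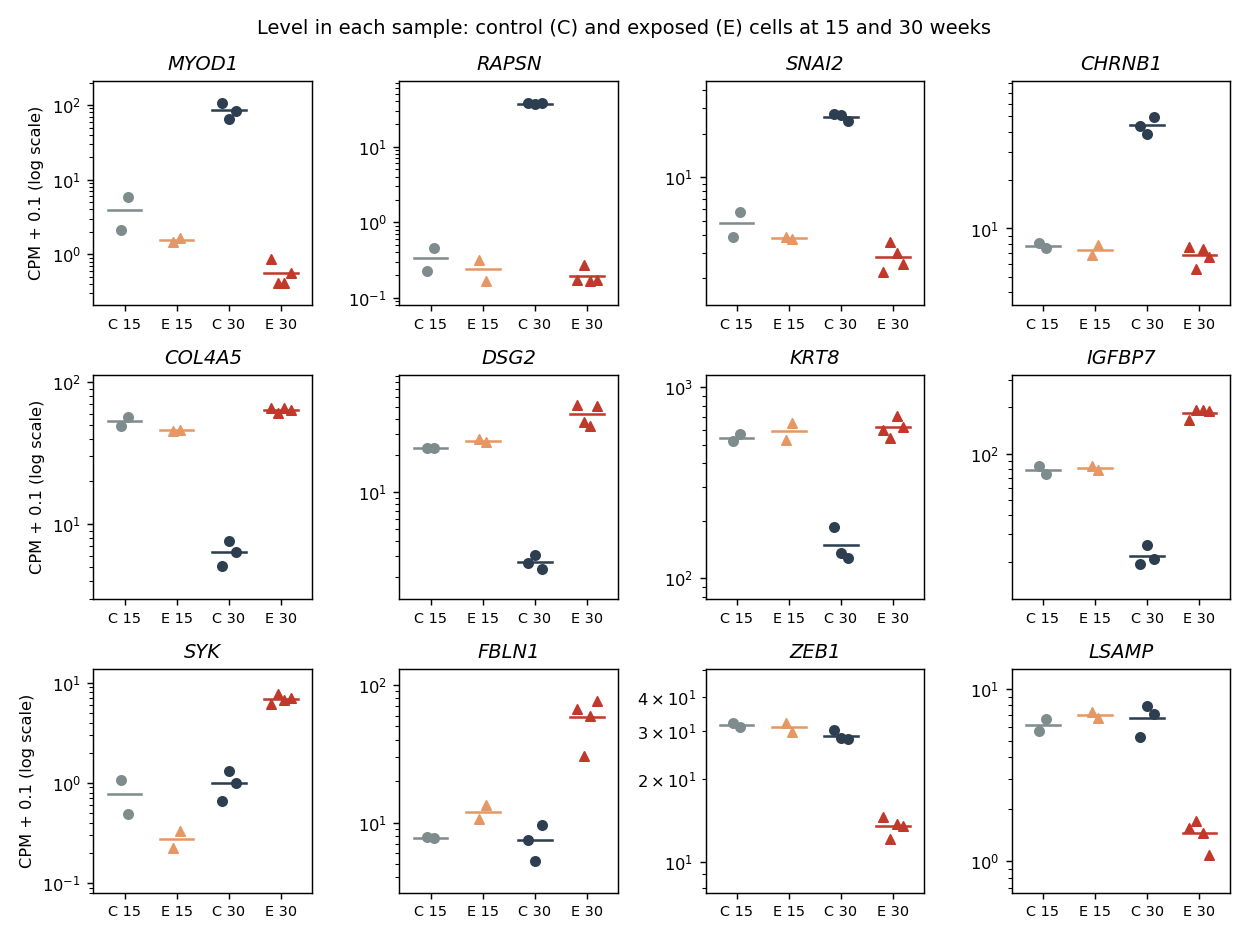
Level of 12 genes in each of the 11 samples, as CPM plus 0.1 on a log scale; grey and dark circles are controls (C) and orange and red triangles exposed cells (E) at 15 and 30 weeks, and bars are group means. In the top row only the 30-week controls are high, in the middle row only they are low, and in the bottom row the 30-week exposed samples stand away from the other groups.

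The called desmosome, cadherin and tight junction genes went the other way: they fell in the controls and rose or did not pass the test in the exposed cells. ITGB4, the integrin of hemidesmosomes, was an exception among genes of epithelial adhesion, since it rose in both arms and was called lower (difference -2.23, edgeR adjusted p = 0.0367). DSG2, the desmoglein of simple epithelia (Entrez gene 1829, chromosome 18, 31498177 to 31549008), was at 22.9 and 23 CPM in the 15-week controls and 27.0 and 25.7 CPM in exposed cells, and at 2.54, 2.96 and 2.22 CPM and 52.4, 37.8, 34.9 and 50.7 CPM at 30 weeks. The 30-week controls lay below every other library, and the difference was 3.89 (standard error 0.25, edgeR adjusted p = 4.95e-07); in the 24 h controls of the first batch DSG2 averaged 69.0 CPM. Desmoplakin, DSP, which ties desmosomes to keratin, fell in controls from 26.5 and 24.8 to 3.83, 5.42 and 5.44 CPM and was at 29.8 and 28.4 CPM at 15 weeks and 32.0, 23.4, 19 and 21.8 CPM at 30 weeks in exposed cells (difference 2.11 ± 0.28). These were the 2 called of 8 tested desmosome genes (25%, against 4.74% of all genes), whose median difference was 0.45. Of 10 cadherins and catenins CDH2 and CDH3 were called (20%). N-cadherin, CDH2, which is typical of mesenchymal cells, fell in controls from 156 to 81.0 CPM and averaged 179 and 181 CPM in exposed cells. P-cadherin, CDH3, fell in controls and rose in exposed cells (-1.08 and 1.39), a call that was lost without control 1 at 15 weeks (edgeR adjusted p = 0.0777). The junctional adhesion molecule F11R likewise moved in opposite directions, from 43.7 to 31.1 CPM in controls and from 39.3 to 73.0 CPM in exposed cells (difference 1.39 ± 0.18). It was 1 of 2 called among 15 tight junction genes (13.3%), whose median difference was 0.05.

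Of 11 tested keratins 4 were called (36.4%, against 4.74% of all genes), all with a higher effect at 30 weeks and all by a fall in the controls alone. The median change over the 11 was -1.0 in controls and 0.67 in exposed cells. KRT8, a keratin of simple epithelia, was at 521 and 569 CPM in the 15-week controls, 530.2 and 646 CPM in exposed cells, 187, 136 and 127 CPM in the 30-week controls and 598, 541, 710.1 and 617 CPM in exposed cells (difference 1.93, standard error 0.25, edgeR adjusted p = 0.000159). Its partner KRT18 went from 310.0 to 194 CPM in controls and from 335 to 338 CPM in exposed cells, and its difference of 0.69 (standard error 0.21, edgeR adjusted p = 0.0875) was not called. KRT19, KRT15 and KRT17 were below 5 CPM in every one of the 11 libraries. Their calls were lost without control 1 or exposed 2 at 15 weeks (KRT19), without any 15-week library, control 2 or 3 or exposed 3 at 30 weeks (KRT15), and without control 1 or either exposed library at 15 weeks or control 2 or 3 at 30 weeks (KRT17), so that the count fell to 1 without control 1 at 15 weeks and rose to 6 without exposed 2 at 30 weeks. KRT17 has near-identical pseudogenes, which makes its counts uncertain.

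The called chains of collagen IV and laminin also had a higher effect at 30 weeks. The collagen IV genes COL4A1 and COL4A2 were not called. COL4A5 and COL4A6, which encode collagen IV chains from neighbouring genes on chromosome X, had differences of 3.56 (standard error 0.21, edgeR adjusted p = 2.32e-07) and 4.05 ± 0.32. COL4A5 (Entrez gene 1287, chromosome X, 108439838 to 108697545) was at 49.0 and 56.7 CPM in the 15-week controls and 45.1 and 46.0 CPM in exposed cells, and at 4.99, 7.54 and 6.26 CPM and 65.3, 60.8, 65.8 and 63.9 CPM at 30 weeks. COL4A6 was at 10.6 to 12 CPM and 8.18 to 9.12 CPM at 15 weeks, then at 0.430 to 1.01 CPM in controls and 7.93 to 10.9 CPM in exposed cells. In both genes the 30-week controls alone stood low. COL1A2, a chain of type I collagen, fell in controls from 7.36 and 2.51 to 0, 0.650 and 0.286 CPM and was at 4.02, 5.01, 1.74 and 2.04 CPM in the 30-week exposed cells (difference 4.86 ± 0.86). Its partner chain COL1A1 went the other way: it rose in controls from a mean of 10.0 to 55.3 CPM, averaged 4.66 and 7.36 CPM in exposed cells, and was not called (difference -1.81, edgeR adjusted p = 0.134). Over 22 tested collagens 4 were called with a higher and 2 with a lower effect (27.3% together, against 4.74% of all genes), and the median difference was 0.19. Without control 1 at 15 weeks 3 were called. Of 10 laminin chains 4 were called (40%), all higher, with a median difference of 0.73 and 9 of the 10 above 0. LAMC1, the common gamma chain, fell in controls from 582 and 589 to 264, 327 and 359 CPM and was at 656, 480.3, 572 and 529 CPM in the 30-week exposed cells (difference 0.83, standard error 0.22, edgeR adjusted p = 0.0384), and LAMA3 fell in controls by 1.66 on the log2 scale, while LAMA1 rose in exposed cells, from 6.95 to 14.7 CPM. Laminin calls rested on single libraries: the count was 0 without control 1 at 15 weeks and 6 without exposed 2 at 30 weeks. LAMA3 was lost without control 1 or either exposed library at 15 weeks, LAMA1 without any 15-week library or control 1 or 2 at 30 weeks, and LAMC1 without any 15-week library, control 1 or 2 or exposed 1 or 3 at 30 weeks.

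Matricellular genes divided between the arms, with 6 of 15 called higher and 1 lower, and a median change of -0.75 in controls and 0.72 in exposed cells. Their called share was 46.7%, against 4.74% of all genes. Fibronectin, FN1, was at 212 and 211 CPM and 213 and 199.8 CPM at 15 weeks; at 30 weeks the controls had 93.0, 119 and 132 CPM and the exposed cells 725, 405, 546 and 507 CPM. Both arms moved, in opposite directions, and the difference was 2.29 (standard error 0.30, edgeR adjusted p = 0.000222). The 24 h controls of the first batch held 2319.6 CPM of FN1, above every library of 15 and 30 weeks. CCN2, a growth factor induced by TGF-beta and YAP, rose in exposed cells alone, to 254, 163, 234 and 229 CPM from 74.3 and 72.2 CPM, with 85.6 to 116 CPM in the 30-week controls (difference 1.29, standard error 0.24, edgeR adjusted p = 0.00438). CCN3 fell in controls and rose in exposed cells (difference 2.09 ± 0.26). Versican, VCAN, was the member with a lower effect, at 6.25 and 22.5 CPM in the 15-week and 77.0, 89.2 and 96.3 CPM in the 30-week controls and at 1.88, 4.24, 1.63 and 2.18 CPM in the 30-week exposed cells. The count fell to 4 without exposed 1 at 15 weeks.

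Some matrix genes rose in the exposed arm alone. FBLN1, a fibulin of elastic fibres, was at 7.71 and 7.64 CPM, 10.6 and 13.2 CPM and 7.4, 5.20 and 9.52 CPM in the 15-week controls, the 15-week exposed cells and the 30-week controls, and at 66.3, 30.2, 59.5 and 76.6 CPM in the 30-week exposed cells (difference 2.35, standard error 0.44, edgeR adjusted p = 0.00394). It was the 1 called of 19 elastic fibre genes (5.26%, near the 4.74% of all genes), whose median difference was -0.06. ITGB3, the integrin beta chain of the vitronectin receptor, rose in exposed cells, where it ranged over 5.89 to 6.59 CPM at 15 weeks and 18.8 to 28.0 CPM at 30 weeks (difference 1.5 ± 0.26). The list of 16 integrins had 2 called in each direction (25% together) and a median difference of 0.01. MMP15, a membrane-bound matrix protease, was between 5.56 and 7.30 CPM in the other 7 libraries and at 23, 15.2, 19.1 and 17.9 CPM in the 30-week exposed cells (difference 1.55, standard error 0.25, edgeR adjusted p = 0.00132). TIMP3, a protease inhibitor, rose in the controls alone, from 15.3 to 39.4 CPM (difference -1.38 ± 0.29), and its call was lost without control 1 or exposed 2 at 15 weeks (adjusted p up to 0.098). TAGLN, an actin-binding protein of smooth muscle, rose in both arms and more in exposed cells, to 173, 156 and 144 CPM in controls and 249, 362, 296 and 293 CPM in exposed cells (difference 1.45, standard error 0.23, edgeR adjusted p = 0.00113).

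**Figure D4:**
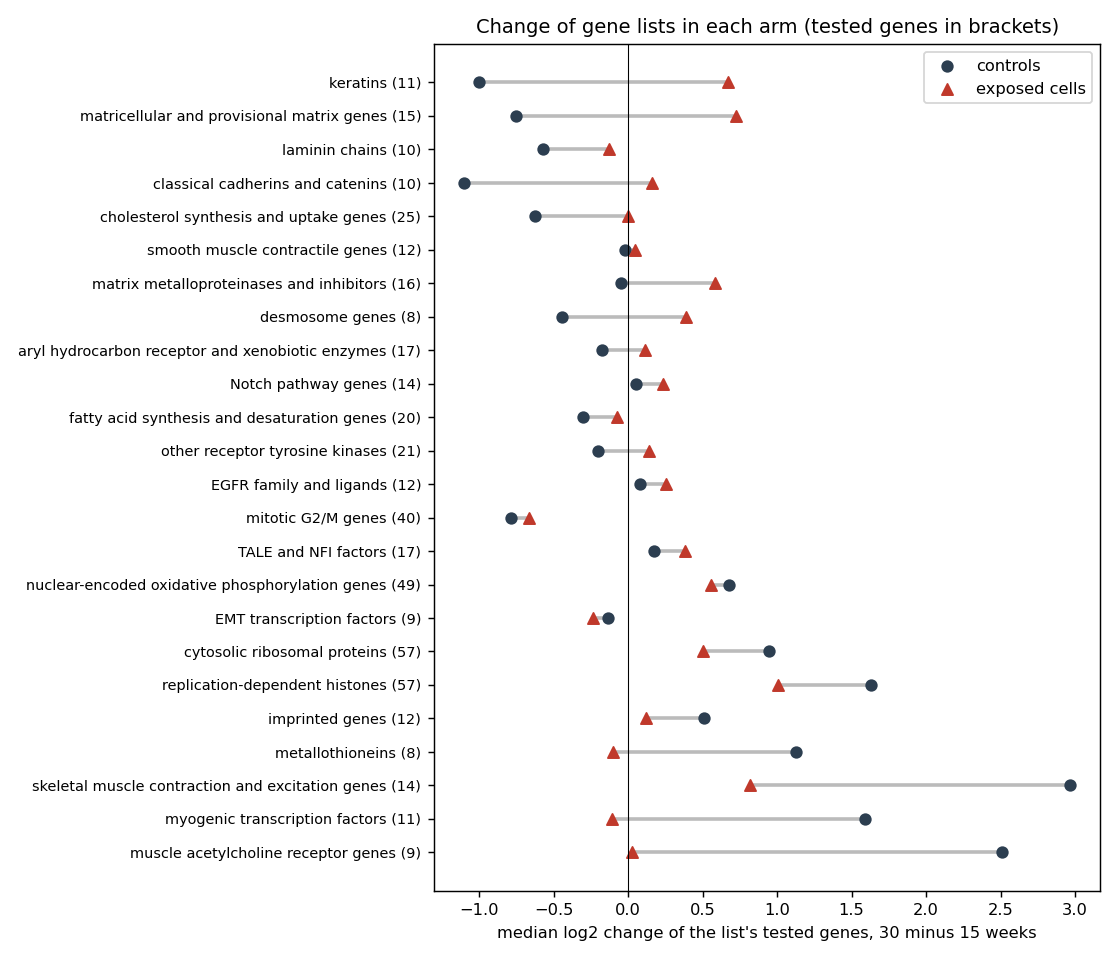
Median log2 change from 15 to 30 weeks over the tested genes of 24 gene lists, in controls (dark circles) and in exposed cells (red triangles); the lists are the 24 with the largest absolute median difference among those with at least 8 tested genes, and the bracket gives the number of tested genes. The 3 skeletal muscle lists and metallothioneins sit to the right in controls and near or below 1 in exposed cells. Smooth muscle genes sit near 0 in both arms (-0.02 and 0.05). Keratins, cadherins and matricellular genes sit left of 0 in controls and right of 0 in exposed cells.

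The transcription factors of epithelial-mesenchymal transition gave 1 called member higher and 3 lower of 9 tested, by different arms. Their called share was 44.4%, against 4.74% of all genes. SNAI2 rose in the controls alone, from 3.73 and 5.66 to 27.1, 26.9 and 24.4 CPM, and was at 2.10, 3.43, 2.88 and 2.39 CPM in the 30-week exposed cells (difference -2.92, standard error 0.30, edgeR adjusted p = 1.98e-05). TWIST1 did the same, from 11.5 to 26 CPM (difference -1.20 ± 0.21). ZEB1 fell in the exposed cells alone: it was at 32.0 and 31 CPM, 31.9 and 29.6 CPM and 30.1, 28.2 and 27.8 CPM in the other groups and at 14.4, 12.1, 13.6 and 13.4 CPM in the 30-week exposed samples, with no overlap (difference -1.07, standard error 0.16, edgeR adjusted p = 0.000849). The member called higher was FOXC1, a forkhead factor. The median difference of the 9 was -0.31. Another gene that fell in the exposed cells alone was LSAMP, a neural adhesion protein, at 5.12, 7.80 and 7.01 CPM in the 30-week controls and 1.45, 1.61, 1.36 and 0.986 CPM in exposed cells, against 5.59 to 6.55 CPM and 6.65 to 7.23 CPM at 15 weeks (difference -2.49 ± 0.31).

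Among signalling pathways, TGF-beta and BMP genes moved in both directions. TGFBR1, the type I receptor, rose in the controls alone from 93.7 and 101 to 217, 243 and 224 CPM and was at 87.8, 108, 79.3 and 87.1 CPM in the 30-week exposed cells (difference -1.41, standard error 0.19, edgeR adjusted p = 0.000257). It was 1 of 2 called of 17 TGF-beta genes (11.8%, against 4.74% of all genes), with 1 call in each direction. Of 20 BMP genes 2 were called higher and 2 lower (20% together). ID2, a target of BMP signals that blocks differentiation factors, rose in controls from 54.7 and 59.6 to 277, 292 and 182 CPM and was at 34.6, 78.7, 46.6 and 28.7 CPM in the 30-week exposed cells (difference -2.77 ± 0.45). The antagonist NOG rose in controls and fell in exposed cells, to 51.1 to 71.7 CPM and 7.46 to 17.4 CPM (difference -2.25 ± 0.34), and the inhibitor SMAD6 fell in both arms, to 4.30 to 4.76 CPM and 12.7 to 14.4 CPM from 26.9 CPM or more (difference 1.41 ± 0.19). In the 24 h controls of the first batch NOG averaged 64.2 CPM, within the range of its 30-week controls, and ID2 48.2 CPM, below its own. The other called BMP gene was CHRDL1, described above. The median differences of the lists, 0.09 for TGF-beta and -0.08 for BMP, were close to the median of 0.00 over all genes tested.

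Of 24 Wnt genes 4 were called (16.7%, against 4.74% of all genes), all higher. WNT5B fell in controls from 29.6 and 35.5 to 9.12, 7.94 and 5.66 CPM and rose in exposed cells from 27.2 and 23.4 to 43.2, 54.2, 42.0 and 28.2 CPM (difference 2.84, standard error 0.34, edgeR adjusted p = 8.71e-05). WNT5A fell in controls by 1.0 on the log2 scale, and WNT7B rose in exposed cells from below 1 CPM to 2.52 to 6.77 CPM; both calls were lost without any 1 of the 15-week libraries (adjusted p up to 0.128 and 0.111), and the count fell to 1 without control 1 at 15 weeks. Notch genes gave 1 call higher and 2 lower of 14 (21.4% together). HEY1, a repressor that Notch induces, rose in controls and fell in exposed cells, to 6.62, 6.50 and 6.30 CPM and 0.688, 0.596, 0.695 and 0.458 CPM from 3.00 to 3.6 and 2.95 to 3.44 CPM (difference -3.35, standard error 0.30, edgeR adjusted p = 6.31e-06). The ligand DLL1 rose in controls alone, to 3.35 to 6.08 CPM, and was below 1 CPM in the other 8 libraries, while HES4 fell in controls and rose in exposed cells (difference 1.61 ± 0.29).

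Receptor tyrosine kinases were called in both directions. Of 21 tested genes in a list of them outside the EGFR and FGFR families 4 were called, all higher, but the list leaves out FLT4, described above, and MUSK, the kinase receptor of the nerve-muscle junction. Both were called lower, and MUSK rose in the controls alone, by 3.51 (difference -3.48 ± 0.90, a call lost without control 1 or either exposed library at 15 weeks, control 3 or exposed 1 or 4 at 30 weeks, with an adjusted p up to 0.231). KIT, the receptor of stem cell factor, fell in both arms, from 17.9 and 13.9 to 0.774, 0.830 and 1.15 CPM in controls and from 15.4 and 17.1 to 8.91, 10.3, 7.93 and 7.57 CPM in exposed cells (difference 3.19, standard error 0.33, edgeR adjusted p = 2.32e-05). MET, the receptor of hepatocyte growth factor, fell in both arms too, by 2.29 in controls and 1.14 in exposed cells on the log2 scale (difference 1.16 ± 0.23), and the collagen receptor DDR2 fell in controls alone, from 45.9 to 19.6 CPM, with 57.3 and 73.9 CPM in exposed cells. FGFR4 rose in controls, from 4.64 and 4.31 to 29.2, 19.9 and 32.6 CPM, against 5.61, 4.28, 5.49 and 6.72 CPM in the 30-week exposed cells (difference -2.50, standard error 0.38, edgeR adjusted p = 0.000766). It was 1 of 3 called of 17 FGF ligands and receptors (17.6%), and the other 2 were called higher. Of 12 genes of the EGFR family and its ligands 2 were called (16.7%). The ligand TGFA fell in controls and rose in exposed cells (-1.10 and 1.27, difference 2.37 ± 0.29). NRG1, the ligand of ERBB3 and ERBB4, did the reverse (0.91 and -1.17), and its call was lost without exposed 2 at 15 weeks (adjusted p = 0.0527).

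The IGF axis had the largest share of called members of the lists with at least 8 tested genes, 6 of 9 (66.7%, against 4.74% of all genes), split evenly by direction. IGFBP7, a secreted binding protein, was at 83.1 and 73.7 CPM and 83.2 and 78.8 CPM at 15 weeks and at 19.2, 25.6 and 20.6 CPM in controls and 166, 191, 193 and 190.4 CPM in exposed cells at 30 weeks (difference 3.04, standard error 0.21, edgeR adjusted p = 6.05e-07). Both arms moved, in opposite directions, and no group overlapped another at 30 weeks. IGFBP4 rose in exposed cells alone, to 83.4, 52.6, 74.6 and 81.8 CPM from 24.9 and 28.9 CPM, with 23.1, 20.7 and 25.9 CPM in the 30-week controls (difference 1.75 ± 0.27). IGFBP5 and IGFBPL1 rose in controls alone, to 6.92 to 11.5 and 11.6 to 12.1 CPM, and ranged over 0.210 to 1.56 and 0.973 to 1.23 CPM in the 30-week exposed cells. Of 17 TALE and nuclear factor I genes with AUTS2, 3 were called higher and 2 lower (29.4% together). NFIA fell in controls from 8.31 and 7.61 to 0.731, 0.686 and 1.36 CPM and was at 16.3, 10.3, 13.4 and 14.7 CPM in the 30-week exposed cells (difference 3.29, standard error 0.36, edgeR adjusted p = 4.65e-05), and the homeobox gene MEIS3 fell in controls and rose in exposed cells (difference 1.17 ± 0.20).

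Cholesterol synthesis genes had a higher effect at 30 weeks where they were called. All 25 genes of the list were tested, 8 were called (32%, against 4.74% of all genes), CYP51A1, HMGCS1 and LSS among them, and 24 of the 25 differences lay above 0. The median change was -0.63 in controls and 0.00 in exposed cells, and each of the 8 changed more in controls. CYP51A1, the lanosterol demethylase, fell from 162 and 143 to 40.0, 44.8 and 42.8 CPM in controls and from 168 and 163 to 102, 83.4, 86.4 and 99.4 CPM in exposed cells (difference 1.01, standard error 0.19, edgeR adjusted p = 0.00376). HMGCS1, which starts the pathway, fell to 63.0 to 71.4 CPM in controls and 116 to 151 CPM in exposed cells, from 226 CPM or more at 15 weeks (difference 0.88 ± 0.19). LSS, which closes the sterol ring, fell in controls alone, from 163 to 91.9 CPM. The call of HMGCS1 was lost without control 1 or exposed 2 at 15 weeks (adjusted p up to 0.0874), and that of LSS without any 15-week library, control 1 or 2 or exposed 1, 3 or 4 at 30 weeks (up to 0.176). The median difference stayed between 0.55 and 0.69 in all alternatives, while the count of calls fell to 1 without control 1 at 15 weeks and rose to 15 without exposed 2 at 30 weeks. The xenobiotic enzymes ALDH1A3 and CYP1B1 were the 2 called of 17 in their list (11.8%). ALDH1A3, a retinaldehyde dehydrogenase, fell from 31.9 and 33.0 to 2.88, 2.63 and 2.18 CPM in controls and from 33.3 and 32.3 to 15.8, 15.0, 15.0 and 14.3 CPM in exposed cells (difference 2.54, standard error 0.19, edgeR adjusted p = 9.22e-07), and CYP1B1 fell in controls alone (difference 1.92 ± 0.29).

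The stress lists held called shares of 37.5% (metallothioneins), 3.23% (antioxidant genes) and 6.67% (unfolded protein response), against 4.74% of all genes. Metallothioneins, small proteins that bind zinc and copper, had 3 called of 8, all lower, with a median change of 1.13 in controls and -0.10 in exposed cells. MT1E was at 35.2 and 41.7 CPM in the 15-week and 213, 134 and 93.5 CPM in the 30-week controls and at 28.6, 48.3, 36.8 and 33.5 CPM in the 30-week exposed cells (difference -1.53, standard error 0.36, edgeR adjusted p = 0.0214). Its call and that of MT1X were lost without any 1 of the 15-week libraries (adjusted p up to 0.128 and 0.14) and that of MT1M without exposed 1 at 15 weeks, where the count was 0; the family's members are alike in sequence, and their counts are uncertain. SOD2, the mitochondrial superoxide dismutase, rose in controls from 44.9 and 45.4 to 97.0, 99.9 and 89.8 CPM and stayed between 44.7 and 49.0 CPM in all 6 exposed libraries (difference -1.02, standard error 0.16, edgeR adjusted p = 0.000823); it was the 1 called of 31 antioxidant genes. DDIT4, an inhibitor of mTOR that stress induces, rose in controls from 21.3 and 17.5 to 65.6, 54.0 and 78.5 CPM and was at 15.9, 11.6, 16.1 and 18.8 CPM in the 30-week exposed cells (difference -1.86, standard error 0.28, edgeR adjusted p = 0.000809), 1 of 2 called of 30 genes of the unfolded protein response.

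The immune lists held called shares of 4.55% (cytokines and inflammation), 7.5% (interferon-stimulated genes) and 12.5% (antigen presentation), against 4.74% of all genes. ICAM1, an adhesion molecule that inflammation induces, rose in both arms, from 2.56 and 2.33 to 5.29, 5.42 and 5.15 CPM in controls and from 2.39 and 2.04 to 28.0, 20.4, 18.9 and 24.9 CPM in exposed cells (difference 2.26, standard error 0.27, edgeR adjusted p = 0.000101), as the 1 called of 22 cytokine and inflammation genes. Of 40 interferon-stimulated genes 2 were called higher and 1 lower. BST2, which tethers budding virus, fell in controls from 9.70 and 9.44 to 1.12, 1.62 and 3.08 CPM and was at 10.8, 7.74, 15.4 and 10.8 CPM in the 30-week exposed cells (difference 2.94 ± 0.47), while the RNA sensor RIGI rose in controls and fell in exposed cells (difference -1.42 ± 0.27). HLA-F rose in exposed cells alone, to 49.7, 47.7, 48.0 and 59.7 CPM from 22.9 and 20.5 CPM (difference 1.06 ± 0.20), 1 of 2 called of 16 antigen presentation genes, and its counts may be shared with other HLA genes.

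Lists of cell growth and death gave few calls or none; of 19 G1 cyclins and inhibitors 1 was called in each direction. None of 40 mitotic, 38 DNA replication, 25 p53-responsive, 20 BCL2 and caspase, 16 immediate early, 20 fatty acid synthesis, 57 ribosomal protein and 49 oxidative phosphorylation genes passed edgeR's test, against 4.74% of all genes. At an unadjusted p under 0.05 the counts were 3, 3, 5, 1, 3, 6, 1 and 3 in the same order. Mitotic genes changed by a median of -0.79 in controls and -0.66 in exposed cells, and ribosomal proteins by 0.94 and 0.50, a median difference of -0.37. Replication-dependent histones rose in both arms, in controls for 54 and in exposed cells for 49 of 57 genes, with medians of 1.63 and 1.01. At 30 weeks 43 of them were called lower for exposure. In the difference 1 was called, H2BC6, and the alternatives called 0 to 10. The 6 small noncoding RNAs had medians of 1.62 in controls and 1.04 in exposed cells and no call. With 2 surrogate variables limma-voom called more genes, 2245 of all 16740. Among them were 5 of the 40 mitotic, 11 of the 57 ribosomal and 15 of the 49 oxidative phosphorylation genes. It also called 5 of the 20 fatty acid synthesis, 4 of the 25 p53-responsive and 1 of the 20 BCL2 and caspase genes. Whether these lists differed from all genes in that setting was not tested. Over all 52 lists 125 of 1068 tested genes were called, against 794 of all 16740, and 42 lists had at least 1 called member. The lists were chosen with earlier results of these data known, so their called share is no test of them. Of the called members 72.8% changed more in controls, as did 73.1% of the 669 called genes outside the lists.

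Called genes were also counted by chromosome. On chromosome 21 the median log2 effect of exposure over 179 tested genes was 0.24 at 15 weeks and 0.53 at 30 weeks, a median difference of 0.30, with 16 genes called higher and 9 lower (14%, against 4.74% of all genes). Its median change from 15 to 30 weeks was -0.27 in controls and 0.05 in exposed cells. Chromosome 13 genes had a median difference of 0.18, with 15 called higher and 3 lower of 308 (5.84%, near the 4.74% of all genes). They fell in both arms by medians of 0.63 in controls and 0.42 in exposed cells. Chromosome 4 had the lowest median difference, -0.24 over 561 genes. On the other chromosomes with at least 50 tested genes the median difference lay between -0.08 and 0.15. By called share the next after chromosome 21 were chromosome 18, with 16 higher and 4 lower of 227 (8.81%), and chromosome 9 (6.92%).

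**Figure D5:**
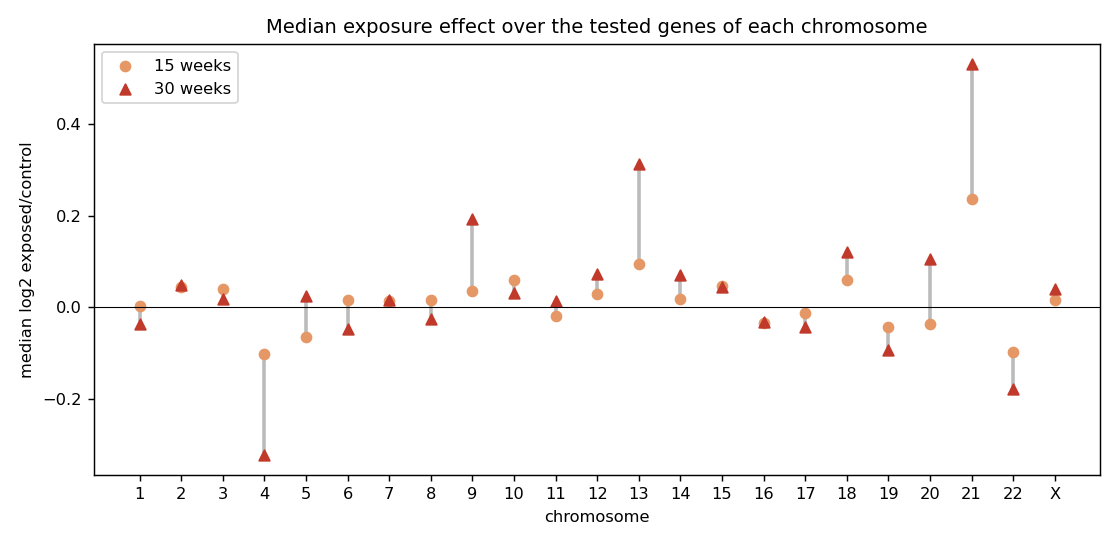
Median log2 ratio of exposed to control cells over the tested genes of each chromosome, at 15 weeks (orange circles) and 30 weeks (red triangles), joined by a grey line. Chromosome 21 stands highest at both time points (0.24 and 0.53), chromosome 13 rises to 0.31 and chromosome 4 falls to -0.32, while most others stay near 0.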

How the data were processed

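RNA-seq libraries (ribosomal RNA depleted, stranded total RNA) were analysed from 15 samples of BEAS-2B cells, of which the 11 of 15 and 30 weeks carry the comparison. The deposited values were raw counts per Entrez gene (28395 genes, 27745 with a symbol); the authors had trimmed the reads with Rfastp, aligned them to GRCh38 with Rsubread and counted them, and the submitters' processing notes name bcl2fastq, featureCounts and hg38. Whether counting used strand or multi-mapped reads is not given in the sources used here, so overlapping genes and near-identical copies are uncertain.

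Counts were filtered with filterByExpr over the 6 conditions (16740 genes kept), scaled by TMM and fitted in edgeR 4.0.16 (R 4.3.3) with 1 coefficient per condition over all 15 samples, which share the estimate of the spread. The quasi-likelihood test was applied to the difference of exposure effects, to the change in each arm and to each effect, with Benjamini-Hochberg adjustment over all genes and a threshold of 0.05. Fitted log2 values used edgeR's default prior count. A prior count of 2 was used for log CPM values, as in the correlations between samples. A group was called at the floor when no library held more than 3 counts. Scripts were tested on simulated data. Alternatives used limma 3.58.1, sva 3.50.0 and DESeq2 1.42.0, other scalings and filters, and left out each sample in turn. The study's own model used surrogate variables of a number not given in the sources used here.

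The comparison, gene lists and tests were chosen with earlier results of these data known. Named genes were the 10 with the largest difference in each direction (mean of at least 5 CPM in a group), up to 4 called members per list and 3 per arm class; those printed are a subset, chosen for their roles after their values were seen, together with members of lists that were not called. Some called genes are not reported here.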

Additional observations from a re-analysis of the deposited data

Results flagged for a closer look

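The exposure effect at 30 weeks differed from that at 15 weeks by an interaction test in 794 genes, 445 with a higher and 349 with a lower effect at 30 weeks. Among the 4 exposed samples of 30 weeks, 8 of 92 genes compared held a sample whose gap to the nearest other, over the group's range, was above Dixon's critical value; chance flags about 1 in 20 groups. In 6 of the 8 the sample was replicate 2. It held 12.4 CPM of PDE1C against 3.84 to 4.53 in the other exposed samples, 0.175 CPM of RAPSN against 0.0695 to 0.0724, 0.631 CPM of MEF2C against 0 to 0.0704, 0.456 CPM of CHRNA1 against 0 to 0.0695, and 1.82 CPM of KRT17 against 0.290 to 0.352. For LAMA3 it was the lowest, at 31 CPM against 46.5 to 48.5. Replicate 1 was the lowest for IGFBP7, at 166 CPM against 190.4 to 193, and replicate 4 the highest for HLA-F, at 59.7 CPM against 47.7 to 49.7. KRT17 apart, each of these genes had no overlap between the exposed samples and the controls of 30 weeks. The genes compared were chosen with their values known, most of them for large differences. Their separation follows from that choice and does not show that replicate 2 was without influence.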

How the results depend on the processing

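Of the 91 called genes examined singly 65 kept their call in all of the 26 alternatives that gave a value, 26 lost it in at least 1 and 0 reversed. With 2 surrogate variables 2245 genes were called (1002 higher, 1243 lower), 712 by controls alone, 775 by exposed cells alone and 519 in the same direction; 1514 had opposite-sign and 728 same-sign, larger effects, 51.7% changed more in controls, and 14 genes were called at 15 weeks. With sample weights the counts were 1754 (869 and 885), 574, 441, 485 and 252 in opposite directions, 1022, 728 and 56. At an adjusted p under 0.01 they were 403 (214 and 189), 229, 63, 62 and 49, 207 and 196, with 2166 at 30 weeks. DESeq2 gave 232 in the same direction, 221 by exposed cells alone and 18 at 15 weeks, condition weights 244 in the same direction and 51 at 15 weeks, no low count filter 10 at 15 weeks, and the 11 samples alone 95 by exposed cells alone. The cause was not tested.

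Leaving out 1 sample at a time gave 393 to 1519 called genes, 204 to 782 higher and 189 to 737 lower, 200 to 555 by controls alone, 47 to 362 by exposed cells alone, 71 to 225 in opposite directions and 55 to 376 in the same direction, 203 to 882 with opposite-sign and 180 to 633 with same-sign, larger effects. It gave 5069 to 9064 genes changed in exposed cells, 2491 to 5704 called at 30 weeks and 0 to 14 at 15 weeks. Without exposed replicate 2 at 30 weeks 793 of the 794 genes were among the 1519.

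A replicate block gave 633 called genes, 583 of them shared with the 794, and 49 in opposite directions. Deviations of same-numbered samples from their group means correlated at 0.029 at 15 weeks and at -0.118, 0.303 and 0.098 at 30 weeks. Pairs with unlike numbers gave -0.481 to 0.359 at 30 weeks. Centring on means of so few samples constrains these values, so they cannot decide whether same-numbered samples were paired.

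The 15-week groups of 2 samples limit the difference, and genes near 0 counts there have no firm fold. The change of an arm crosses batches and cannot be told apart from them. The chi-square and count floors cover counting error only.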
